A study of Homo sapiens with 6 samples.

Results

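Keratins are the intermediate filament proteins of epithelial cells, and the 10 keratin genes described here are the simple epithelial, bile duct and hair-type members KRT7, KRT8, KRT10, KRT17, KRT18, KRT19, KRT23, KRT80, KRT81 and KRT86. They were taken by symbol from a table of 60240 Ensembl genes measured in HepG2, a human hepatocellular carcinoma cell line; antisense genes were left out. The 3 GDF11 libraries came from HepG2 cultures given 100 ng/ml recombinant GDF11, a secreted factor related to TGF-beta, and were harvested at 24 h. The 3 control libraries came from HepG2 cultures labelled as controls, with no mention of a vehicle. The labels speak of biological replicates of total RNA from 1 line. RNA integrity numbers were 9.6, 9.5 and 9.4 in GDF11 replicates 1, 2 and 3, and 9.8, 9.9 and 9.6 in control replicates 1, 2 and 3.

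A keratin filament is built from paired chains, a smaller acidic type I chain and a larger basic type II chain, so each keratin needs a partner of the other type. Hepatocytes carry KRT8 (type II) and KRT18 (type I) as their pair, bile duct cells add KRT7 (type II) and KRT19 (type I), and KRT17 is best known from skin appendages and from stressed or healing epidermis. KRT81 and KRT86 are type II keratins of hair. Most type I genes lie together on chromosome 17 and the type II genes on chromosome 12, where KRT18 stands beside KRT8 as the exception.

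GDF11-treated cells held more RNA of most of these keratins. Of the 9 keratin genes that passed the filter on low values, 8 rose, none fell and KRT10 was not called, by limma. Of all 18723 tested genes 11.7% were called higher and 10.8% lower. The GDF11 and control libraries did not overlap for any of the 9, with GDF11 higher each time, which held for 20.9% of all tested genes. KRT80, KRT17 and KRT81, which were low in the controls, stood at about 10 times the control level. KRT8, KRT18, KRT19 and KRT23, which were abundant in the controls, stood at 1.96 to 2.77 times the control level. KRT86, the tenth gene, had fewer than 5 normalised reads in every library and was not tested. The median log2 difference of the 9 keratin genes was 1.28, and that of all tested genes was 0.0056. The genes were chosen with earlier results of these data known, so these contrasts with all tested genes are no independent test. The control means of these 9 genes alone lay 0.66 or more above the lowest value, where the filter asked for a mean of 0.5 over all 6 libraries.

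Values are the authors' variance-stabilised log2 values, and 5.52 stands for 0 reads. Low genes are compressed on this scale: 0.472 of a log2 change remains at a value of 7, 0.835 at 9 and 0.978 at 12. Folds are therefore given as ratios of group mean normalised reads, which were had by inverting the stabilising curve. A gene was called at a Benjamini-Hochberg adjusted p under 0.05 in limma over all tested genes, and differences are GDF11 minus control ± limma's SE with 3 libraries in each group. Depth, inferred from the step of 1 read in the values, ran from 47900000 to 53400000 reads per library. The labels name a MiSeq, whose runs usually give fewer reads than that, so this depth is uncertain. The p-values measure the spread between these cultures of 1 line.

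Among the controls, replicate 3 was the least like the others. Its Pearson correlations with them across genes were 0.984 and 0.982, against 0.992 between control replicates 1 and 2. On a scale with 0 at the mean of control replicates 1 and 2 and 1 at the GDF11 mean, it lay at -0.59 for KRT8, -1.07 for KRT18, -0.49 for KRT19 and -0.32 for KRT23, on the far side from the GDF11 libraries. It lay between -0.054 and 0.0036 for KRT7, KRT17, KRT80 and KRT81. Without control replicate 3, 9 of the 9 tested keratin genes were called higher, against 19.5% of all tested genes. The number called was 6 without GDF11 replicate 2 (8.1% of all tested genes), 7 with the RNA integrity number (RIN) as a covariate (6.14%) and 6 at an adjusted p under 0.01 (6.25%). In the main fit 10.8% of all tested genes were called lower and 11.7% higher. All 12 listed hepatocyte markers passed the filter, and 7 of them fell while none rose with GDF11 (0 higher at an unadjusted p under 0.05). The 4 with the lowest p were FGB, for a fibrinogen chain (-1.42 ± 0.16, adjusted p = 0.000413), CYP7A1, for the rate-limiting enzyme of bile acid synthesis (-0.87 ± 0.13, adjusted p = 0.00223), TTR, for transthyretin (-1.52 ± 0.24, adjusted p = 0.00247), and ASGR1, for a subunit of the asialoglycoprotein receptor (-1.04 ± 0.18, adjusted p = 0.00370). CYP7A1 was low, so its difference is compressed. On log2 of normalised reads plus 1, where low values are less compressed, it fell the most of these 4, by -3.96. FGB was at -1.44, TTR at -1.56 and ASGR1 at -1.04 on that scale. ASGR1 was not called with RIN as a covariate (-0.67, adjusted p = 0.0501). The summed normalised reads of the 12 markers, whose part in the keratin results was not tested, ran from 1237556 to 1435361 in GDF11 libraries and from 1544846 to 2278643 in controls. In bulk RNA, fewer cells of a kind and less RNA per cell cannot be told apart.

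**Figure D1:**
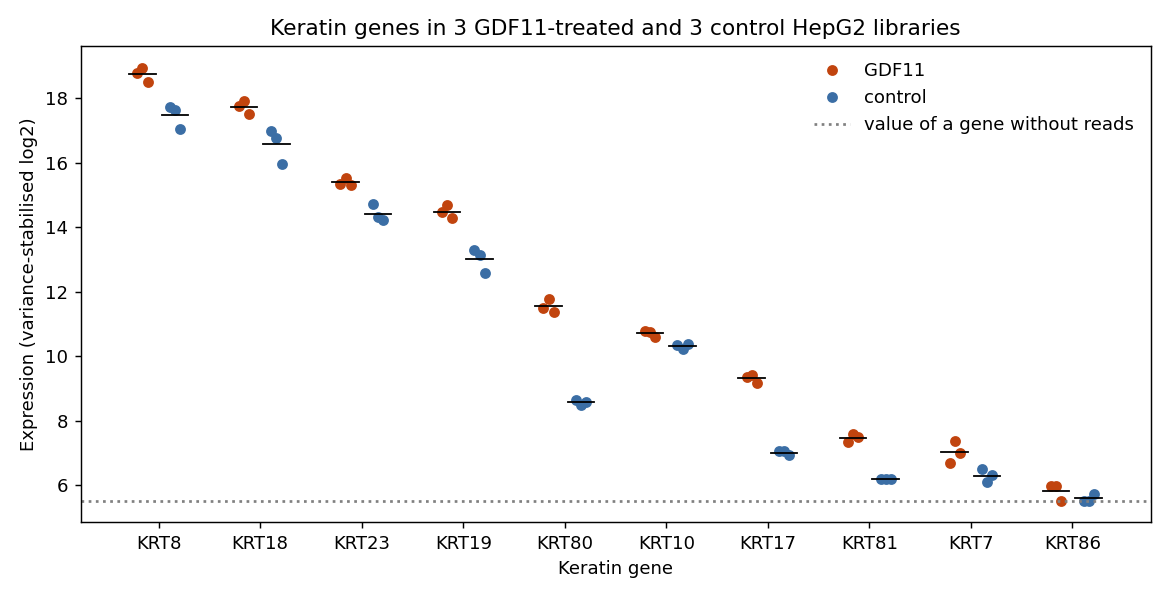
Variance-stabilised log2 values of the 10 keratin genes (y axis) in 3 GDF11 libraries (red, left) and 3 control libraries (blue, right) of each gene, with the group mean as a bar; the dotted line is the value of a gene without reads, 5.52. The GDF11 points lie above all control points for every gene except KRT86.

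KRT8 and KRT18, the keratin pair of hepatocytes and the main keratins of these cells, both rose. KRT8 (ENSG00000170421.12, chromosome 12, 52897191 to 52949860 of GRCh38) stood at 18.79, 18.96 and 18.51 in GDF11 replicates 1, 2 and 3, against 17.74, 17.63 and 17.06 in control replicates 1, 2 and 3. The groups did not overlap, and control replicate 3 was the lowest library. KRT8 was higher by 1.28 ± 0.24 (adjusted p = 0.00627 with limma), with 444863 ± 67914 normalised reads in GDF11 cells and 185998 ± 43758 in controls (SD, n = 3 each), a fold of 2.39. KRT18 (ENSG00000111057.11, chromosome 12, 52948855 to 52952906) stood at 17.77, 17.92 and 17.51 in GDF11 libraries, against 16.99, 16.78 and 15.98 in control libraries. It was higher by 1.15 ± 0.28 (adjusted p = 0.0180 with limma), a fold of 2.14. The call of KRT18 ended without GDF11 replicate 1 (1.13, adjusted p = 0.0654) and without GDF11 replicate 2 (1.06, adjusted p = 0.0677). Fitted with RIN, KRT18 was higher by 1.82 (adjusted p = 0.00748). Without control replicate 3, KRT8 was higher by 1.07 (adjusted p = 0.00142) and KRT18 by 0.85 (adjusted p = 0.00362).

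The pair made up most of the keratin reads. KRT8 took 0.958%, 1.05% and 0.838% of all normalised reads in GDF11 replicates 1, 2 and 3, against 0.396%, 0.340% and 0.296% in control replicates 1, 2 and 3. By reads it was the 5th, 5th and 6th most abundant tested gene in the GDF11 libraries, against the 19th, 24th and 22nd in the controls. KRT18 ranked 9th in each GDF11 library and 45th, 69th and 77th in the controls. Per kilobase of transcript, KRT8 ranked between 3rd and 5th in GDF11 cells and between 29th and 50th in controls. The 10 keratin genes together took 1.57% ± 0.16 of the reads in GDF11 cells and 0.592% ± 0.10 in controls (SD, n = 3 each). Total normalised reads were 47137879, 48508290 and 44621162 in GDF11 replicates 1, 2 and 3. In control replicates 1, 2 and 3 they were 55405015, 59440376 and 46103008. A change in share is therefore not the same as the fold on normalised reads. Of these keratin reads, KRT8 and KRT18 made up 90.2% ± 0.55 in GDF11 cells and 89.8% ± 1.46 in controls.

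The 2 chains of the pair were set against each other within each library. The genes overlap by 1084 bases on opposite strands, and no source used here says whether the counting used strand, so reads of the overlap may not be told apart. The within-library difference KRT8 minus KRT18 was 1.01, 1.04 and 1.00 log2 units in GDF11 replicates 1, 2 and 3, against 0.75, 0.84 and 1.08 in control replicates 1, 2 and 3. Control replicate 3 lay above all GDF11 libraries, so the groups overlapped. The group means differed by 0.13, with an exact two-sided permutation p of 0.4 where 0.1 is the smallest that 3 against 3 libraries can give. With quantile normalization between libraries the difference was -0.31, with an exact permutation p of 0.1, the smallest possible. Per kilobase, the ratio of KRT8 to KRT18 was 1.60 ± 0.021 in GDF11 cells and 1.48 ± 0.18 in controls (SD, n = 3 each). The ratio of all 5 type II genes to all 5 type I genes per kilobase was 1.30 ± 0.026 in GDF11 cells and 1.19 ± 0.097 in controls. That ratio rests mainly on KRT8 and KRT18, and its direction also turned with quantile normalization (log2 difference -0.24, against 0.14 on the deposited scale).

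**Figure D2:**
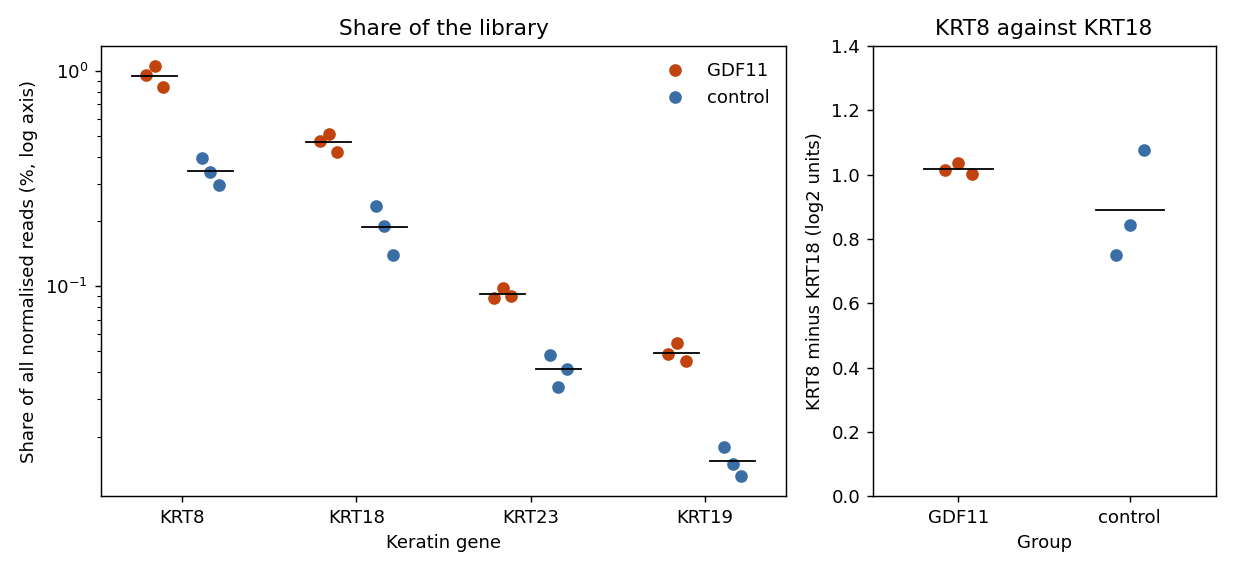
Left, the share of all normalised reads (percent, log axis) taken by KRT8, KRT18, KRT23 and KRT19 in each library, GDF11 in red and control in blue, with group means as bars. Right, the log2 difference KRT8 minus KRT18 within each library, where the GDF11 libraries lie between 1.00 and 1.04 and the controls between 0.75 and 1.08.

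KRT8 and KRT18 have many processed pseudogenes, and the stretch below shows 1 of them where it is closest to its parent. Each line is 75 bases, the length of the reads, taken from the GENCODE transcripts lifted to GRCh37, with the base that differs in capitals.
KRT8: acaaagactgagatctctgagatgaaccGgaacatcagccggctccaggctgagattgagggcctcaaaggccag
KRT8P36: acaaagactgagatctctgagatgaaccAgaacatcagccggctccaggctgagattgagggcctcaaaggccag
The KRT8 stretch starts at coding base 907, counted from the start codon, on chromosome 12, and KRT8P36 lies on chromosome 3. KRT8P36 was chosen because it had the highest mean value of the tested KRT8 pseudogenes, and the stretch as the one with the fewest differences. Another stretch of this length differs between them at 10 bases. KRT8P36 itself was higher by 0.95 ± 0.20 (adjusted p = 0.0114 with limma). Among 51 pseudogenes of KRT8, 35 were tested, 16 rose and none fell. Of 67 KRT18 pseudogenes 18 were tested, 3 rose and none fell. Among all tested genes 11.7% were called higher and 10.8% lower. Whether the control means of these pseudogenes alone would pass the filter was not tested. Windows of 75 bases with an exact copy in a transcript of another gene made up 18.8% of the KRT8 transcript and 6.50% of the KRT18 transcript. For windows of 31 bases these shares were 59.8% and 68.9%. All KRT8 pseudogenes together held 0.300% to 0.377% of the reads of KRT8, and all KRT18 pseudogenes 0.178% to 0.251% of those of KRT18. Reads of these pseudogenes and of their parents can be exchanged by the counting, so the pseudogene calls are uncertain, while their sums are small beside the parents' reads.

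KRT19 and KRT7, the keratins that bile duct cells add to this pair, both rose but from very different levels. KRT19 (ENSG00000171345.13, chromosome 17, 41523617 to 41528308) stood at 14.48, 14.69 and 14.30 in GDF11 libraries, against 13.30, 13.14 and 12.59 in controls. It was higher by 1.48 ± 0.21 (adjusted p = 0.00153 with limma), with 23089 ± 3180 normalised reads in GDF11 cells and 8339 ± 2020 in controls (SD, n = 3 each), a fold of 2.77. Without control replicate 3 KRT19 was higher by 1.27 (adjusted p = 0.000303). Its pseudogene KRT19P1 was higher by 0.99 ± 0.15 (adjusted p = 0.00235), and no 75-base window of KRT19 had an exact copy in another gene's transcripts. Of the shorter windows of 31 bases 11.4% had one, 8.46% in KRT19P1.

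KRT7 (ENSG00000135480.16, chromosome 12, 52233243 to 52255853) was near the lower end of the table. It had 32.1, 85.5 and 51.5 normalised reads in GDF11 replicates 1, 2 and 3, against 21.5, 7.74 and 13.7 in control replicates 1, 2 and 3. The groups did not overlap, but the 3 GDF11 libraries spread widely. KRT7 was higher by 0.71 ± 0.18 (adjusted p = 0.0206 with limma), and the fold on reads was 3.94. This call was the least stable among the 8. It ended without GDF11 replicate 2 (0.54, adjusted p = 0.0532), without GDF11 replicate 3 (0.73, adjusted p = 0.0533), without control replicate 2 (0.62, adjusted p = 0.0779) and in the fit with RIN (0.52, adjusted p = 0.317). Within libraries KRT7 minus KRT19 was -7.48 ± 0.27 in GDF11 cells and -6.71 ± 0.38 in controls (SD, n = 3 each; exact permutation p = 0.1, the smallest possible). On log2 of normalised reads plus 1, where low values are less compressed, the difference between the groups turned to 0.41. The order of both responses thus depends on the scale. In the GENCODE annotation lifted to GRCh37, KRT7 also overlaps KRT86 by 2887 bases on the same strand. The RefSeq positions (GRCh38) of KRT7 and KRT86 given here do not overlap. KRT7-AS, which overlaps KRT7 on the other strand, had 0 to 2.41 normalised reads in the 6 libraries.

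Other markers of bile duct cells were mixed. Of 15 listed genes 14 had a row and 9 were tested, of which none rose and 2 fell by limma, with a median log2 difference of 0.090. Among all tested genes 11.7% were called higher and 10.8% lower. At an unadjusted p under 0.05 the counts of these markers were 2 higher and 3 lower. The 2 higher ones, neither called, were PROM1 (0.76 ± 0.25, adjusted p = 0.0614) and CLDN4 (0.56 ± 0.19, adjusted p = 0.0708). ANXA4, an annexin, fell by 0.75 ± 0.14 (adjusted p = 0.00622). SOX9, a transcription factor of bile duct and progenitor cells, fell by 0.54 ± 0.16 (adjusted p = 0.0366). SOX9 was no longer called when any 1 library other than control replicate 3 was left out (-0.62 to -0.48) or with quantile normalization (-0.41, adjusted p = 0.125). CFTR was without reads in the 6 libraries, and AQP1, MUC1 and CLDN7 were among those below the filter.

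KRT23 and KRT10 are the remaining type I genes of moderate or high level. KRT23 (ENSG00000108244.17, chromosome 17, 40922700 to 40937646), a type I keratin described in epithelial tumours, stood at 15.35, 15.55 and 15.30 in GDF11 libraries, against 14.71, 14.32 and 14.23 in controls. The groups did not overlap. It was higher by 0.98 ± 0.18 (adjusted p = 0.00557 with limma), a fold of 1.96. The gene ENSG00000234477 overlaps KRT23 over 14947 bases on the other strand, so their reads may not be told apart either. KRT10 (ENSG00000186395.8, chromosome 17, 40818117 to 40822614), which is known from the upper layers of the epidermis, stood at 10.79, 10.74 and 10.60 in GDF11 libraries, against 10.35, 10.23 and 10.38 in controls. Its groups did not overlap either, yet at 0.39 ± 0.14 (adjusted p = 0.0735) it was not called, and its fold was 1.34. KRT10 was called without control replicate 3 (0.42, adjusted p = 0.0266), with library weights (0.42, adjusted p = 0.00776) and without a mean trend in the variance prior (adjusted p = 0.0478). KRT10-AS1 overlaps KRT10 on the other strand and stood at 10.12, 10.31 and 10.10 in GDF11 libraries, against 10.62, 10.77 and 10.04 in controls (-0.30 ± 0.20, adjusted p = 0.314). The libraries were directional per the labels, but as the use of strand in counting is unknown, reads of KRT10 and KRT10-AS1 may not be told apart.

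KRT80 and KRT17 had the largest log2 differences of the keratin genes on the stabilised scale. KRT80 (ENSG00000167767.14, chromosome 12, 52168996 to 52192014) encodes a type II keratin found near the margins of differentiating epithelial cells. It stood at 11.51, 11.76 and 11.38 in GDF11 libraries, against 8.63, 8.49 and 8.57 in controls. The gap between the groups was far wider than the spread within them. KRT80 was higher by 2.99 ± 0.15 (adjusted p = 8.26e-06 with limma), the 39th largest increase among 18723 tested genes. Its normalised reads averaged 2927 ± 419 in GDF11 cells and 292.8 ± 18.5 in controls (SD, n = 3 each), a fold of 9.995. LINC00592 spans KRT80 on the other strand in the GENCODE annotation lifted to GRCh37. The RefSeq position of LINC00592 (GRCh38, 52210930 to 52223880) lies outside KRT80. LINC00592 had 5.39 normalised reads on average in GDF11 cells and 1.00 in controls.

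KRT17 (ENSG00000128422.17, chromosome 17, 41619442 to 41624575) stood at 9.37, 9.41 and 9.17 in GDF11 libraries, against 7.05, 7.05 and 6.93 in controls. It was higher by 2.31 ± 0.14 (adjusted p = 1.58e-05 with limma), the 108th largest increase, with 551.2 ± 53.8 normalised reads in GDF11 cells and 53.3 ± 5.41 in controls (SD, n = 3 each), a fold of 10.3. The ranks of KRT80 and KRT17 are those of the stabilised differences, which are compressed at low values. On log2 of normalised reads plus 1, KRT17 was higher by 3.35, KRT80 by 3.31 and KRT81 by 3.19. Leaving out single libraries moved KRT80 only between 2.88 and 3.07 and KRT17 between 2.27 and 2.38, and both stayed called. Of the KRT17 transcript 4.57% of the 75-base windows and 37.7% of the 31-base windows had an exact copy elsewhere. The 8 KRT17 pseudogenes together had at most 0.973 normalised reads in a library.

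**Figure D3:**
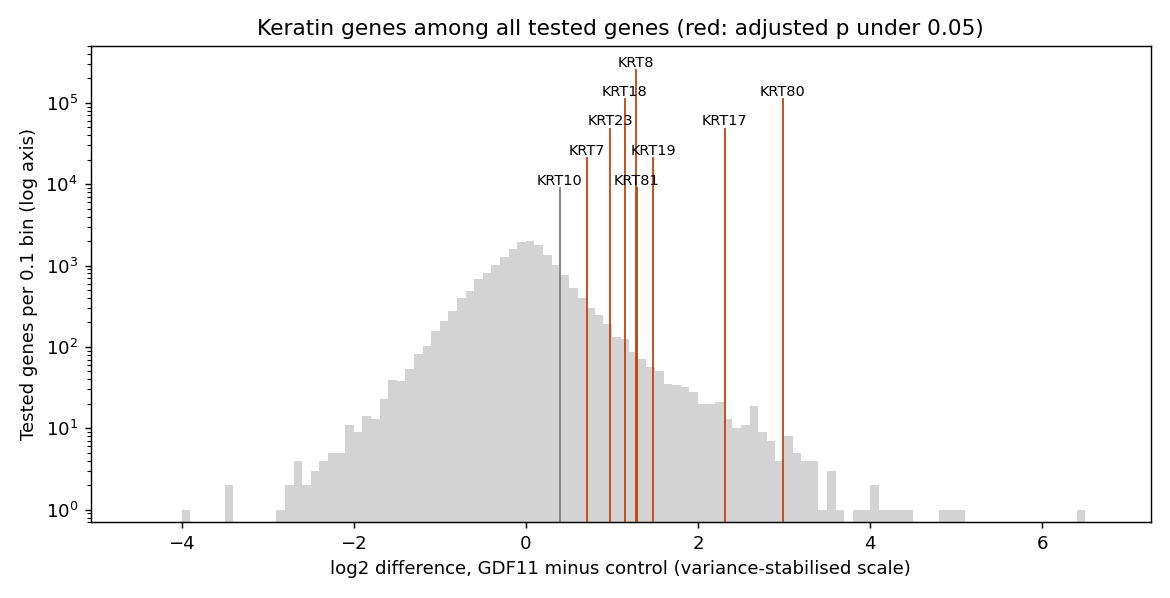
Distribution of the log2 difference, GDF11 minus control, over 18723 tested genes (grey, genes per 0.1 bin on a log axis) with the 9 tested keratin genes as lines, red where the adjusted p was under 0.05. All 9 lie above 0, from 0.39 for KRT10 to 2.99 for KRT80.

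Of the hair-type genes KRT81 and KRT86, KRT81 rose and KRT86 was too low to test. Both genes lie at 1 place on chromosome 12, where KRT81 (ENSG00000205426.10, 52285913 to 52291534) falls within the span of KRT86 (ENSG00000170442.12, 52274645 to 52309163) on the opposite strand. Their coding sequences are alike over long stretches, as 2 stretches of 75 bases show. The first was chosen as identical in both genes.
KRT81 and KRT86: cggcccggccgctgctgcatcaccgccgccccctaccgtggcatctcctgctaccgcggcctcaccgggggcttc
The next was chosen as one with 10 differences, by which reads can be told apart, and capitals mark the bases that differ.
KRT81: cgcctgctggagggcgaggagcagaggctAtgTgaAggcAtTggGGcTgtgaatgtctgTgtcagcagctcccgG
KRT86: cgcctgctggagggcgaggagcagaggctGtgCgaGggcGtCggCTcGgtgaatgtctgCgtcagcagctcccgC
In KRT81 the identical stretch starts at coding base 61 and the other at coding base 1222, counted from the start codon, and all come from the GENCODE transcripts lifted to GRCh37. Of the 75-base windows of KRT81, 33.0% had an exact copy in KRT86, and 36.6% had one in any other gene. For such reads the gene of origin is uncertain. With windows of 31 bases these shares of KRT81 were 43.2% and 53.2%.

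KRT81 had 82.6, 110.9 and 100.3 normalised reads in GDF11 replicates 1, 2 and 3, against 9.92, 9.66 and 9.62 in control replicates 1, 2 and 3. The controls were nearly equal and all GDF11 libraries lay far above them. KRT81 was higher by 1.29 ± 0.11 (adjusted p = 0.000103 with limma), a fold of 10.1, and stayed called under the alternatives tried, at 1.22 to 1.36 on the deposited scale. KRT86 had 4.80, 4.87 and 0 normalised reads in GDF11 libraries, against 0, 0 and 0.962 in controls. With so few reads no fold is given. In the fit without a filter KRT86 was 0.24 higher and not called (adjusted p = 0.302), and GDF11 replicate 3 had no reads.

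Levels of different keratin genes were compared as normalised reads per kilobase of the annotated canonical transcript. In GDF11 cells the order was KRT8, KRT18, KRT23, KRT19, KRT80, KRT10, KRT17, KRT81, KRT7 and KRT86. The ranges of 3 libraries overlapped between KRT23 and KRT19, between KRT80 and KRT10 and between KRT81 and KRT7, and no other neighbours overlapped. In controls KRT10 stood above KRT80 and KRT7 above KRT81, with overlap only between KRT8 and KRT18 and between KRT7 and KRT81. Per kilobase the ranges of KRT80 and KRT10 overlapped in GDF11 cells, at 756 ± 108 and 741 ± 52.6 reads per kilobase, while in controls KRT80 had 75.6 ± 4.78 against 554 ± 32.4 for KRT10 (SD, n = 3 each). KRT8 had 249363 ± 38068 reads per kilobase in GDF11 cells and 104259 ± 24528 in controls. The 3 genes with folds of about 10 had 5.05 to 75.6 reads per kilobase in controls, and the 4 abundant genes had 5999 or more. KRT7, at 8.81 reads per kilobase in controls, had a fold of 3.94, and KRT10, at 554, had the smallest fold, 1.34.

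**Figure D4:**
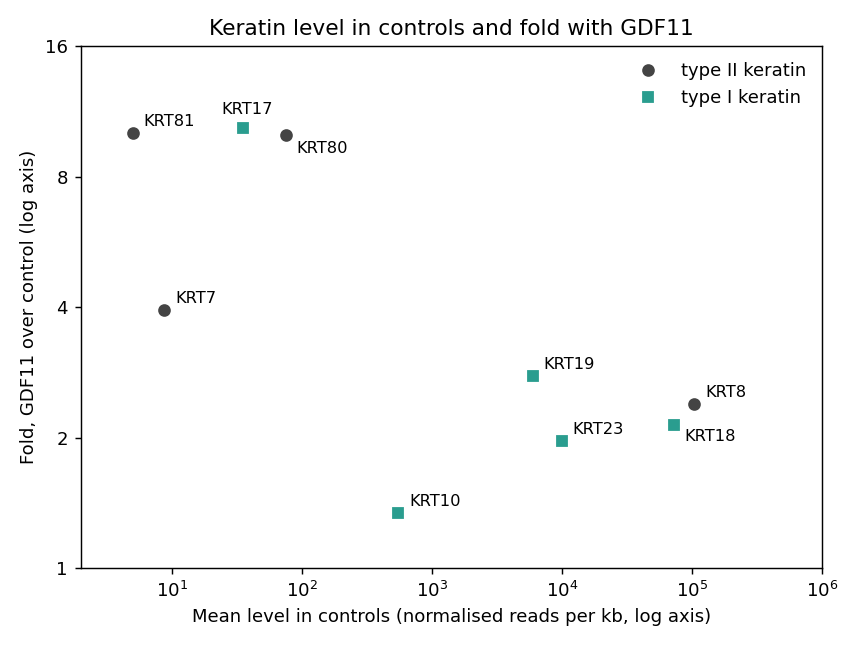
Mean level in the controls (normalised reads per kilobase, log axis) against the fold of GDF11 over control (log axis) for the 9 tested keratin genes, circles for type II and squares for type I. KRT81, KRT17 and KRT80 lie near a fold of 10, KRT7 at 3.94, and KRT8, KRT18, KRT19 and KRT23 between 1.96 and 2.77.

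Few other keratin genes were measurable. Of 44 other keratin genes, all of which had a row, 24 were without reads in all 6 libraries and 41 lay below the filter. The 3 tested were KRT39, KRT15 and KRT12, and 1 of them rose, where 11.7% of all tested genes were called higher and 10.8% lower. KRT39, a type I hair keratin gene, had 129.9, 130.1 and 118.1 normalised reads in GDF11 replicates 1, 2 and 3, against 13.3, 10.4 and 14.3 in control replicates 1, 2 and 3. The groups were far apart. It was higher by 1.43 ± 0.11 (adjusted p = 5.44e-05 with limma), a fold of 9.94. The gene ENSG00000234477 overlaps KRT39 over 8532 bases on the other strand. As the use of strand in counting is unknown, reads of these 2 genes may not be told apart. The epidermal keratin genes KRT1, KRT5, KRT6A and KRT14 had under 1 normalised read on average in either group. The 14 squamous and hair markers had summed normalised reads of 48.4 to 67.5 in GDF11 libraries and 44.9 to 126 in controls, 7 of them were without reads in any library, and of the 2 that were tested neither was called by limma (0 higher and 0 lower at an unadjusted p under 0.05). TP63, the main transcription factor of squamous epithelium, had 0.882 normalised reads on average in GDF11 cells and 0 in controls. Markers of blood, vessel and connective tissue cells summed to 4483 to 5648 normalised reads in GDF11 libraries and 3826 to 4731 in controls, with PTPRC without reads in any library and 1 of 5 tested genes higher and 1 lower. Nearly all of that sum came from CD68, named after its values were seen, with 2784 normalised reads on average in GDF11 cells and 2908 in controls, and from PDGFRB, for a receptor of platelet-derived growth factor, with 2172 in GDF11 cells and 1136 in controls. PDGFRB was the gene called higher (0.92 ± 0.23, adjusted p = 0.0227). That call ended with RIN as a covariate (adjusted p = 0.229) and without GDF11 replicate 1, GDF11 replicate 2, control replicate 1 or control replicate 2 (0.67 to 0.97). VWF, for a clotting protein of vessel cells, was the gene called lower (-0.87 ± 0.15, adjusted p = 0.00344), with 7.05 normalised reads on average in GDF11 cells and 50.6 in controls, and was not called with RIN (-0.59, adjusted p = 0.127). The part of these marker levels in the keratin results was not tested.

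Of the genes of other intermediate filaments, nestin alone was called. Of 16 listed, 10 were tested, 1 rose, none fell (1 at an unadjusted p under 0.05) and 9 were not called by limma, with a median log2 difference of 0.092. Among all tested genes 11.7% were called higher and 10.8% lower, so 1 of 10 higher is near that share. NES, which encodes the large filament protein nestin, stood at 13.20, 13.20 and 13.31 in GDF11 libraries, against 10.49, 10.38 and 10.82 in controls, and was higher by 2.68 ± 0.16 (adjusted p = 1.49e-05 with limma), a fold of 6.69. VIM, for the mesenchymal filament protein vimentin, had 0.640 normalised reads on average in GDF11 cells and 0.368 in controls and was not tested.

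Genes of proteins that link or bind keratin filaments were the next list. Of 25 listed, 23 were tested, 8 rose, none fell (1 at an unadjusted p under 0.05) and 15 were not called by limma, with a median log2 difference of 0.43. PLEC, for plectin, which ties keratin filaments to other cell structures, stood at 13.91, 14.20 and 13.83 in GDF11 libraries, against 12.94, 12.98 and 12.62 in controls, and was higher by 1.13 ± 0.17 (adjusted p = 0.00205 with limma). Its relatives EVPL, for envoplakin, and PPL, for periplakin, were higher by 1.03 ± 0.16 (adjusted p = 0.00237) and 1.00 ± 0.14 (adjusted p = 0.00116), a fold of about 2.07 for each. TGM2, for a transglutaminase that cross-links proteins, was higher by 3.06 ± 0.19 (adjusted p = 1.82e-05), a fold of 8.43. Of all tested genes 11.7% were called higher in the same fit. Without control replicate 1 the number of linker and partner genes called higher was 5, with 1416 of all 18723 tested genes called higher. Without control replicate 3 it was 13, with 3647 (19.5%) of all tested genes called higher, so these counts moved along with those of all genes.

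**Figure D5:**
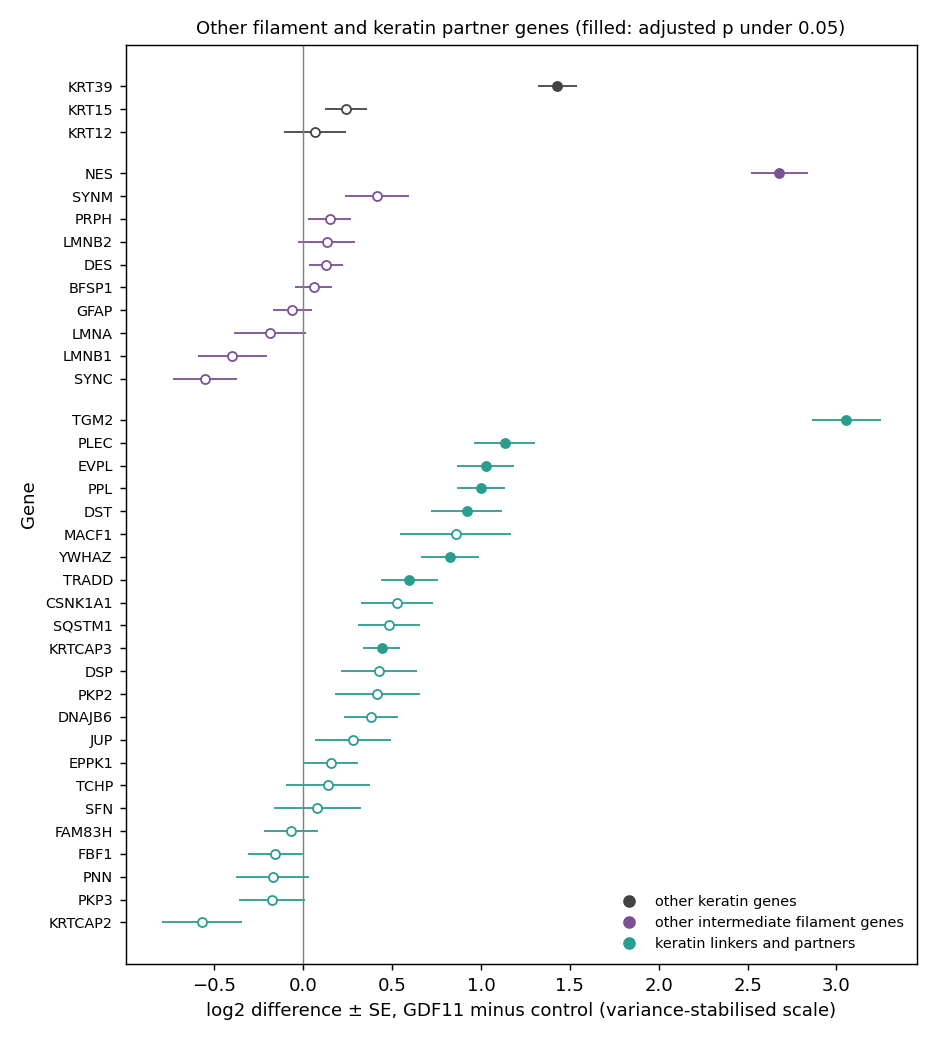
Log2 difference ± SE, GDF11 minus control, of the tested genes among other keratins (black), other intermediate filament genes (purple) and keratin linkers and partners (green), filled where the adjusted p was under 0.05. KRT39, NES and TGM2 lie farthest to the right in their groups, at 1.43, 2.68 and 3.06.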

How the data were processed

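Total RNA of 3 GDF11 and 3 control HepG2 cultures was sequenced as single reads of 75 bases from directional libraries, per the labels' protocols. The authors deposited 1 table of variance-stabilised log2 values per gene. Trimmomatic, DESeq2, Salmon 1.2.1 and GRCh38 appear in the submitters' processing notes, but STAR 2.6 with hg19 in the labels' protocols. No source used here says which pipeline made the deposited values.

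Normalised reads were computed by inverting the stabilising curve from its value at 0 reads. Of the low values 71.4% to 74.5% per library then fell on whole reads within 0.01, too few for whole reads to be recovered or a count model to be fitted. Depth was estimated from the step of 1 read. Genes whose mean lay 0.5 or more over the table's minimum entered the fit with limma 3.58.1, run in R 4.3.3 (mean trend, two-sided, no covariate), which was checked on simulated data. Exact permutation tests used scipy 1.17.1. Symbols were matched for 58349 IDs (96.9%), positions are from RefSeq (GRCh38.p14), and transcripts from GENCODE (GRCh37). Chi-square per degree of freedom between replicates of a group was 25.0 to 201.4, so none was a copy of another.

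All members were named whatever their result, and of each other list the called genes among the 4 with the lowest p. Others named as low or below the filter, and KRT15, KRT12, KRT79, CD68, KRT8P36, KRT19P1, KRT7-AS, KRT10-AS1 and LINC00592, were added after values were seen. PROM1 and CLDN4 were likewise named after values were seen. Members and lists were chosen with earlier results of these data known. Alternatives covered filters, normalization, variance prior, weighting of libraries, RIN as a covariate, a replicate block, the scale, the threshold and leaving out each library.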

Additional observations from a re-analysis of the deposited data

How the results depend on the processing

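The 9 tested keratin genes were higher with GDF11 under all alternatives, and 6 to 9 of them were called (7 with the RNA integrity covariate and 6 at an adjusted p under 0.01). Leaving out 1 library gave 1397 to 3647 genes called higher and 955 to 3993 lower, 6 to 9 keratin genes higher, 5 to 13 linker and partner genes higher and 0 to 1 lower, 0 to 2 other filament genes lower, and 0 to 1 bile duct markers higher and 1 to 3 lower. The highest all-gene counts came without control replicate 3. Counts of all genes called higher and lower were 4473 and 4554 with library weights, 1149 and 721 with the RNA integrity covariate and 1170 and 791 at an adjusted p under 0.01. Linker and partner genes called higher were 14 with library weights (1 lower) and 5 at the stricter threshold. Of the other filament genes 1 was called lower with library weights, with the RNA integrity covariate and without a mean trend. Bile duct markers called higher were 2 with quantile normalization, 2 with library weights and 1 with the RNA integrity covariate, and 1 was called lower with quantile normalization, without a filter and at the stricter threshold. Without a filter 2 other keratin genes were called, KRT79 being added at 0.36 (adjusted p = 0.0238) with no reads in the controls. KRT8 minus KRT18 turned to -0.31 and type II minus type I to -0.24 with quantile normalization, and KRT7 minus KRT19 to 0.41 on log2 of reads plus 1. The cause was not tested, apart from the compression of low values that the scale itself imposes.

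Same-numbered libraries did not deviate together in every pair (correlations -0.088, 0.38 and 0.48), and 4 of 6 libraries correlated best with their own number. With a replicate block 3147 genes were called higher and 3306 lower, 9 keratin genes higher (KRT10 added, adjusted p = 0.0495), 2 other filament genes higher and 1 lower, 13 linker and partner genes higher and 1 lower, and 2 bile duct markers higher. Leaving out each library within a group changed the within-library differences without a change of sign: 0.057 to 0.22 for KRT8 minus KRT18, -0.93 to -0.56 for KRT7 minus KRT19 and 0.091 to 0.19 for type II minus type I. KRT86 had too few reads for the filter.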
